A study of Mus musculus with 6 samples.

Results

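Immunoglobulin constant-region genes and the genes of the lambda light chain locus were followed in mouse cells sorted and labelled as pre-B cells. The cells came from 3 stages of Eμ-Myc lymphoma development, namely wild type, premalignant and malignant. The set was given by name as 9 genes, namely Ighm, Ighd, Igkc, Iglc1, Iglc2, Iglc3, Iglv1, Iglv2 and Iglv3. Of these, 7 were matched to 1 of the 37991 identifiers of the count files by their symbol in GENCODE vM1, and Ighd and Iglc1 were not analysed here. They were listed by name and not by a cut on measured values, but with earlier results of these data known. All 7 passed the filter on low counts and were tested among 16683 genes. Reads counted on genes ranged from 30031100 to 53453055 counts per library, so that 3 counts, the lowest number taken as detected, stood for 0.0526 to 0.108 CPM, the count scaled by library total and TMM factor to 1000000 reads.

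The cells were sorted from bone marrow by flow cytometry as B220-high, IgM-low and IgD-low, and polyadenylated RNA was sequenced from 2 libraries per stage, each from individual animals. All mice were C57BL/6. Wild-type mice carried no transgene and were 4 to 6 weeks old. Premalignant mice were heterozygous for the Eμ-Myc transgene, in which the enhancer of the immunoglobulin heavy chain locus drives Myc in B-lineage cells, and were of the same age. Malignant mice carried the same transgene, had developed spontaneous lymphoma and were 10 to 20 weeks old, so that malignancy and age cannot be told apart. The labels give 1 gate for all stages, whereas the study's methods describe the malignant cells as lacking surface IgM and IgD and as taken from both sexes, the others from females, so that the gate and sex cannot be told apart from the malignant stage either. The sort used the surface proteins that Ighm and Ighd encode, so that cells with much of either protein were left out of every library. In bulk RNA such as this, fewer cells that express a gene and less RNA of it per cell cannot be told apart.

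The stage labels were checked first. Myc was at 33.8 and 41.4 CPM in wild-type, 1164 and 1155 CPM in premalignant and 1732 and 1578 CPM in malignant replicates 1 and 2. All 6 B-lineage markers used here (Cd79a, Cd79b, Ptprc, Pax5, Ebf1 and Blk) were detected in every library, and their summed level was 3823 to 4569.7 CPM in wild-type, 2302 to 2445 CPM in premalignant and 2192 to 2396 CPM in malignant libraries. Markers that define the pro-B and pre-B stages went against the label in both Eμ-Myc stages. Their sum was 2823 to 3168 CPM in wild-type, 426 to 523 CPM in premalignant and 125 to 209.5 CPM in malignant libraries, with 6 of 6 lower in each Eμ-Myc stage than in wild-type cells and 1 of 6, Il7r, lower in malignant than in premalignant cells. Fewer of the 6 premalignant calls passed when any 1 library compared was left out. In malignant vs. premalignant cells 3 were lower in DESeq2, 6 without the filter on low counts and 0 when only the 2 stages were fitted. The surrogate light chain genes Vpreb1 and Igll1, at 115 to 197 CPM in wild-type libraries, were at 9.74 and 18.8 CPM in premalignant replicate 1 and 4.88 and 9.58 CPM in premalignant replicate 2. They were at 0.146 and 0.167 CPM in malignant replicate 1, near the level of 3 counts, and at 4.05 and 7.56 CPM in malignant replicate 2. The libraries are therefore called by their stage below.

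An antibody chain is made from a variable and a constant region. In a developing B cell the heavy chain locus is rearranged first, and Ighm, the constant region of the mu chain, is transcribed from it. The pre-B cell then joins V and J segments at the kappa locus, whose only constant region is Igkc, or at the lambda locus, along which V genes and constant regions alternate. Most mouse B cells use kappa. In the mouse lambda locus, Iglv2 is mostly joined to the J segment before Iglc2, and Iglv1 mostly to the segments before Iglc1 and Iglc3. Unrearranged constant regions are also transcribed at a low level, as germline transcripts, before joining. Reads of joined and of germline transcripts can thus fall on the same constant-region gene, and the counts do not separate them.

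The lambda genes lie on the minus strand of chromosome 16 of NCBIM37 (mm9). In the direction of transcription the order is Iglv2 (chr16:19260494-19260937), Iglv3 (chr16:19241304-19241772), Iglc2 (chr16:19198494-19200444), Iglv1 (chr16:19085110-19085553) and Iglc3 (chr16:19065327-19067266). Each has 2 exons in the annotation. Igkc is a gene of 1 exon at chr6:70676429-70676751 on the plus strand, and Ighm has 4 exons at chr12:114659078-114660941 on the minus strand.

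The lambda constant regions are near copies of each other, which matters for how 50-base reads are assigned. The coding exons of Iglc2 and Iglc3, each of 312 bases, are 96.5% identical, with 11 differing bases and a longest identical run of 79 bases. They are shown 5′ to 3′ for their first 280 bases, which hold all 11 differences, as Iglc2 at chr16:19198664-19198943 and Iglc3 at chr16:19065493-19065772 on the minus strand, with the differing bases in capitals.
Iglc2: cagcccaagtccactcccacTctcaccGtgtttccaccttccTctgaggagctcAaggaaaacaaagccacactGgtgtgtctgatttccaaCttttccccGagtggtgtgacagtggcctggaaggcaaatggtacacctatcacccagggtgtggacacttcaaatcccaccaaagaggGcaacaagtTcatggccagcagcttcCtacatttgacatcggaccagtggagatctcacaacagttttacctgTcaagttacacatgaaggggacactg
Iglc3: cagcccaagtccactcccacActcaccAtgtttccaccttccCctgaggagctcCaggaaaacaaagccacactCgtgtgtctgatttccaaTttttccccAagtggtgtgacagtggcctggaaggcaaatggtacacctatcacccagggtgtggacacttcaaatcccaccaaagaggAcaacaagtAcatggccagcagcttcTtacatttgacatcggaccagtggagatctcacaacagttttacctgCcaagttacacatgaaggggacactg

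Of all windows of 50 bases within the exons, 100% were unique in the genome for Ighm, Igkc and Iglv3. The share was 91.1% for Iglc3 and 79.9% for Iglc2, which share 43 windows, and a further 59 windows of Iglc2 recur within Fmo2 on chromosome 1. It was 70.3% for Iglv1 and 70.0% for Iglv2, which share 76 windows and whose second exons are 96.4% identical. How the counting treated reads from a shared window was not tested, and levels of these 4 genes are uncertain for that reason. For the scarcer gene of a pair the error can exceed its share of repeated windows, if reads of the other gene were counted on it. In Eμ-Myc libraries this concerns Iglc2 beside Iglc3 and Iglv2 beside Iglv1. Per-kilobase levels below are not corrected for shared windows.

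The noncoding first exon of Iglc3 in this annotation starts before the J segment. It holds a stretch of 28 bases laid out like a recombination signal, the element that the recombinase cuts and that is lost from the chromosome once V and J have joined. The matching stretch of Iglc2 is not shown here, so this layout is not given as particular to Iglc3. In Iglc3 it is a nonamer and a heptamer, both in capitals, around a spacer of 12 bases, and ends 38 bases before the end of the exon (chr16:19067172-19067199, minus strand).
Iglc3: GGTTTAGGGttgggtttcagtCACTGTG

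The 3 lambda V genes share an octamer upstream of their start. The octamer ATTTGCAT, or ATGCAAAT on the other strand, is the element that Oct factors bind in immunoglobulin promoters. It occurred once in the window from 250 bases before to 50 bases after the start of each lambda V gene, 105 bases before the start in Iglv1 and Iglv2 and 97 bases before it in Iglv3. The windows of Ighm, Igkc, Iglc2 and Iglc3 held none. Of all 37203 gene windows of this length 2.28% held the octamer, against 69.1% of 217 immunoglobulin V genes. A stretch of 90 bases around it is shown with the octamer in capitals, for Iglv1 (chr16:19085614-19085703), Iglv2 (chr16:19260998-19261087) and Iglv3 (chr16:19241833-19241922), minus strand.
Iglv1: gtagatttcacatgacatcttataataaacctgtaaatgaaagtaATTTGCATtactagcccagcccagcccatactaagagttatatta
Iglv2: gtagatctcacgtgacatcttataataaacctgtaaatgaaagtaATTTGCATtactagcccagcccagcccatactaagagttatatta
Iglv3: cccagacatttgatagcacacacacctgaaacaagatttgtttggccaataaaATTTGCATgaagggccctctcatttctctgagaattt

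In premalignant cells all 7 genes were lower than in wild-type cells, and the lambda genes had the largest fold changes. In malignant cells Iglc3 stood at or above its wild-type level, whereas Iglc2 and the 3 lambda V genes stayed far below theirs. A gene was called changed where edgeR's adjusted p was 0.1 or lower and its log2 fold change was 0.5 or more in size. For premalignant vs. wild-type cells, 7 of 7 genes were called, all lower, against 39.3% of all genes tested (20.3% called lower). For malignant vs. wild-type cells 6 of 7 were called, 5 lower and 1 higher, against a background of 49.2% (24.9% higher and 24.3% lower). With upper-quartile scaling, which shifted the median of all genes by -0.17 in this comparison, the split was 6 lower and 0 higher. For malignant vs. premalignant cells 1 of 7 was called, higher, against 6.18% of all genes (3.73% higher and 2.45% lower). The libraries of the 2 stages did not overlap for 7 of 7 genes in premalignant vs. wild-type cells (77.4% of all genes), for 7 of 7 in malignant vs. wild-type cells (71.7%) and for 4 of 7 in malignant vs. premalignant cells (51.1%). The median log2 fold change of the 7 genes in these 3 comparisons was -3.11, -2.51 and 0.95, beside -0.08, -0.02 and 0.04 over all genes tested. The comparisons share libraries and are not independent of each other.

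**Figure D1:**
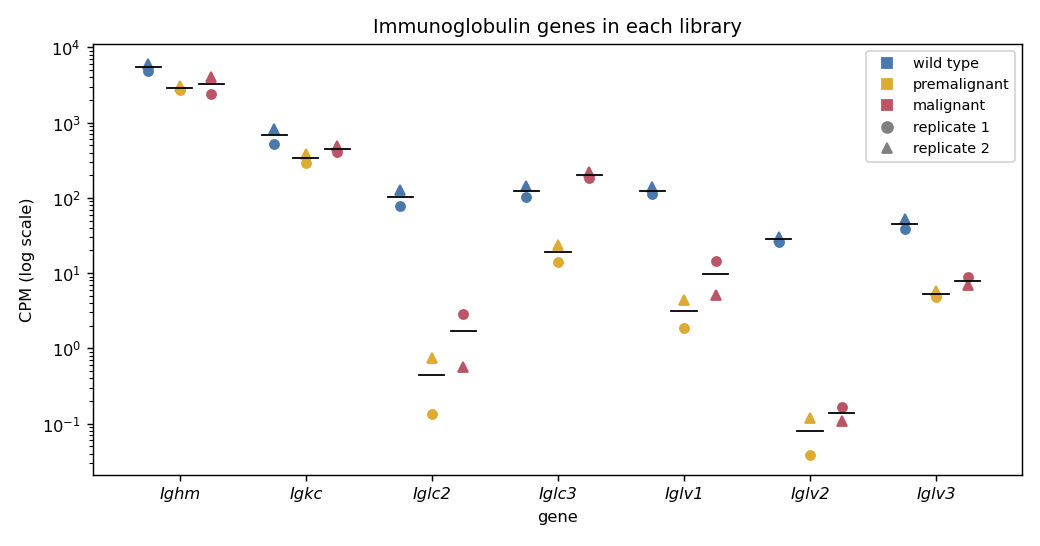
CPM of the 7 genes in each of the 6 libraries on a log scale, with stages in colour, circles for replicate 1, triangles for replicate 2 and a line at the mean of the 2 libraries. Premalignant points lie below wild-type points for every gene, and malignant Iglc3, at 184 and 221 CPM, lies above its wild-type points at 102 and 146 CPM.

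Ighm, the heavy chain gene, was the most abundant of the set in every library. It was at 4781 and 6087 CPM in wild-type, 2699 and 3049 CPM in premalignant and 2379 and 4058 CPM in malignant replicates 1 and 2. Both wild-type libraries were above all others, whereas the malignant libraries lay on either side of the premalignant pair. The log2 fold change was -0.92 (SE 0.29, edgeR adjusted p = 0.0557) in premalignant vs. wild-type cells and -0.76 (SE 0.29, edgeR adjusted p = 0.0778) in malignant vs. wild-type cells. For malignant vs. premalignant cells the value was 0.16 (SE 0.29, edgeR adjusted p = 0.813). The first call was lost when any of its 4 libraries was left out, with log2 fold changes of -1.08 to -0.73 and edgeR adjusted p of 0.112 to 0.269. The call in malignant vs. wild-type cells was lost without wild-type replicate 1 (edgeR adjusted p = 0.128), without wild-type replicate 2 (edgeR adjusted p = 0.320) and without malignant replicate 1, where the log2 fold change was -0.41.

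Igkc, the kappa constant region, followed Ighm in order. Its levels were 518 and 831 CPM in wild-type, 291 and 379.5 CPM in premalignant and 404 and 488 CPM in malignant replicates. The 3 stages did not overlap, with malignant libraries between the other stages. The log2 fold change was -1.01 (SE 0.27, edgeR adjusted p = 0.0337) in premalignant vs. wild-type cells, which was called. It was -0.60 (SE 0.27, edgeR adjusted p = 0.117) in malignant vs. wild-type cells and 0.41 (SE 0.27, edgeR adjusted p = 0.455) in malignant vs. premalignant cells, neither of which was called. The premalignant call was lost without wild-type replicate 2, premalignant replicate 1 or premalignant replicate 2, at log2 fold changes of -0.63, -0.82 and -1.20 and edgeR adjusted p of 0.166, 0.209 and 0.120. In malignant vs. wild-type cells Igkc was called lower in 7 of 13 alternatives. Among them were the fits without wild-type replicate 1 (-0.89, edgeR adjusted p = 0.0516) or malignant replicate 2 (-0.71, edgeR adjusted p = 0.0872), DESeq2 (-0.60, DESeq2 adjusted p = 0.0852), upper-quartile scaling (-0.77, edgeR adjusted p = 0.0621) and both other filters on low counts, none (-0.59, edgeR adjusted p = 0.0121) and at least 10 counts in every library (-0.69, edgeR adjusted p = 0.0716).

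The lambda constant regions Iglc3 and Iglc2 differed in their malignant level. Iglc3 was at 102 and 146 CPM in wild-type, 14.1 and 23.7 CPM in premalignant and 184 and 221 CPM in malignant replicates. The stages did not overlap, the premalignant pair being lowest and the malignant pair highest. It fell by 2.71 on the log2 scale (SE 0.31, edgeR adjusted p = 0.00301) in premalignant vs. wild-type cells. It rose in malignant vs. premalignant cells by 3.42 (SE 0.32, edgeR adjusted p = 0.0126), a 10.7-fold difference, and was the only gene of the set called there. Without premalignant replicate 1 or 2 the log2 fold change was 3.09 or 3.84, but the edgeR adjusted p was 0.171 or 0.114 and the call was lost.

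In malignant vs. wild-type cells the log2 fold change of Iglc3 was 0.71 (SE 0.29, edgeR adjusted p = 0.0925), which passed the threshold narrowly. This call was lost without wild-type replicate 1 (0.48, edgeR adjusted p = 0.346), wild-type replicate 2 (0.98, edgeR adjusted p = 0.111) or malignant replicate 2 (0.59, edgeR adjusted p = 0.163), with upper-quartile scaling (0.54, edgeR adjusted p = 0.184), with at least 10 counts in every library (0.62, edgeR adjusted p = 0.115) and with a minimum log2 fold change of 1, which makes 6 of 13 alternatives. The higher direction held in each of these.

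Iglc2 did not share this pattern. It was counted at 78.6 and 127 CPM in wild-type replicates, from 4482 and 4477 counts. The premalignant replicates held 7 and 25 counts, or 0.133 and 0.753 CPM, and the malignant replicates 137 and 16 counts, or 2.87 and 0.574 CPM. Wild-type libraries stood far above all others, and the malignant and premalignant libraries overlapped. Taken over both libraries, the wild-type level was 260-fold the premalignant level (95% interval 184 to 380) and 48.0-fold the malignant level (40.9 to 56.7). The exact binomial interval covers counting error only, and not reads from windows shared with Iglc3. The log2 fold changes from wild-type cells were -7.98 (SE 1.01, edgeR adjusted p = 0.00395) and -5.83 (SE 0.88, edgeR adjusted p = 0.00384). In malignant vs. premalignant cells it was 2.15 (SE 0.93, edgeR adjusted p = 0.271) and was not called, but passed without malignant replicate 2 (2.84, edgeR adjusted p = 0.0324).

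**Figure D2:**
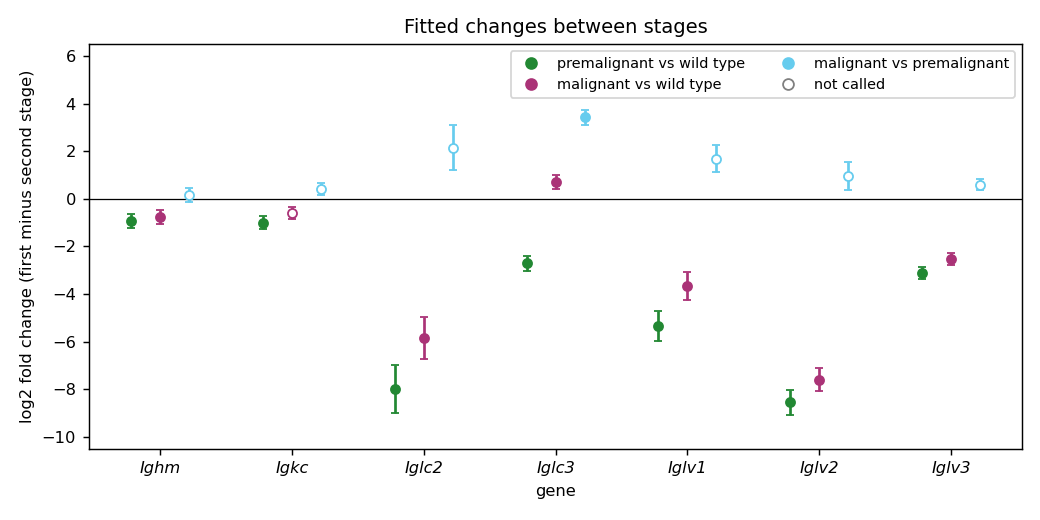
Log2 fold change of each gene in the 3 comparisons (first stage minus second stage), with bars of 1 standard error from the edgeR fit and filled points where the gene was called. Iglc3 is above 0 in both comparisons that involve malignant cells first, at 0.71 and 3.42, while Iglc2, Iglv1, Iglv2 and Iglv3 lie at -2.51 or lower in both comparisons with wild-type cells.

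The 3 lambda V genes encode the variable regions that are joined to these constant regions. Iglv1 was at 111 and 139 CPM in wild-type, 1.87 and 4.34 CPM in premalignant and 14.3 and 5.16 CPM in malignant replicates. Wild-type libraries were again far above the rest, and both malignant libraries were above both premalignant ones. Iglv1 fell by 5.35 (SE 0.64, edgeR adjusted p = 0.00351) on the log2 scale in premalignant vs. wild-type cells. In malignant vs. wild-type cells the log2 fold change was -3.67 (SE 0.58, edgeR adjusted p = 0.00460). In malignant vs. premalignant cells its log2 fold change was 1.68 (SE 0.57, edgeR adjusted p = 0.180), which was not called. It passed there without malignant replicate 2 (2.21, edgeR adjusted p = 0.0135) and in DESeq2 (1.62, DESeq2 adjusted p = 0.0241).

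Iglv2 was close to the lower limit of detection in every Eμ-Myc library. It held 1469 and 1074 counts in wild-type replicates, 25.7 and 30.4 CPM, against 2 and 4 counts in premalignant and 8 and 3 counts in malignant replicates. Those counts correspond to 0.0381, 0.121, 0.167 and 0.108 CPM, and the premalignant and malignant libraries overlapped. Over both libraries the wild-type level was 393-fold the premalignant one (95% interval 180 to 1072, from 2543 against 6 counts) and 189-fold the malignant one (106 to 380, 11 counts). The calls against wild-type cells were edgeR adjusted p = 0.00147 and 0.000566. The log2 fold change between malignant and premalignant cells was 0.95 (SE 0.60, edgeR adjusted p = 0.445), a difference that was not detectable at these counts.

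Iglv3 had the smallest fold changes of the V genes. Its levels were 38.6 and 52.6 CPM in wild-type, 4.84 and 5.75 CPM in premalignant and 8.89 and 7.06 CPM in malignant replicates. The stages did not overlap. Its log2 fold changes from wild-type cells were -3.11 (SE 0.26, edgeR adjusted p = 0.00182) in premalignant and -2.51 (SE 0.25, edgeR adjusted p = 0.00117) in malignant cells. For malignant vs. premalignant cells the value was 0.59 (SE 0.24, edgeR adjusted p = 0.248), which passed without malignant replicate 2 (0.72, edgeR adjusted p = 0.0877). Iglv1 made up 63.3% and 62.6% of the lambda V sum in wild-type replicates, whereas Iglv3 made up 71.8% and 56.3% in premalignant replicates, 57.3% in malignant replicate 2, and Iglv1 61.3% in malignant replicate 1.

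Levels were set side by side per kilobase of exon to give the order of the genes within a stage. In wild-type cells Ighm (3498 and 4453 CPM per kb) was followed by Igkc (1604 and 2572 CPM per kb), Iglv1 (316 and 396 CPM per kb) and Iglc3 (176 and 250.4 CPM per kb). Iglc2 (129.6 and 209 CPM per kb) overlapped with Iglc3 above it and with Iglv3 (105 and 144 CPM per kb) below it, and Iglv2 was lowest at 74.0 and 87.4 CPM per kb. The wild-type lambda genes thus lay within 1 order of magnitude of each other.

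In premalignant cells the order was Ighm, Igkc, Iglc3 (24.3 and 40.8 CPM per kb), Iglv3 (13.2 and 15.7 CPM per kb) and Iglv1 (5.32 and 12.4 CPM per kb). Iglc2 (0.220 and 1.24 CPM per kb) and Iglv2 (0.110 and 0.346 CPM per kb) came last and overlapped. In malignant cells Iglc3 (316 and 380.4 CPM per kb) was separated from every other lambda gene. Iglv1 (40.8 and 14.7 CPM per kb) and Iglv3 (24.3 and 19.3 CPM per kb) overlapped, followed by Iglc2 (4.73 and 0.946 CPM per kb) and Iglv2 (0.481 and 0.309 CPM per kb).

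**Figure D3:**
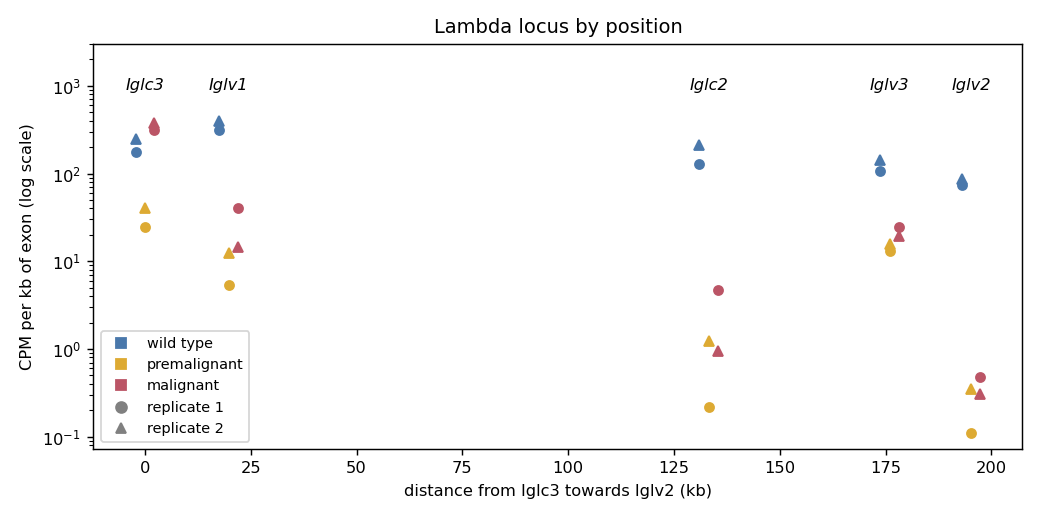
CPM per kb of exon (log scale) of the 5 lambda genes against their distance from Iglc3 in kb, with stages in colour and slightly offset, and symbols for the replicates. Wild-type points stay between 74.0 and 396 CPM per kb along the locus, while in malignant cells Iglc3 at the left edge is at 316 and 380.4 CPM per kb and Iglc2, 133 kb away, is at 4.73 and 0.946 CPM per kb.

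The ratio of lambda to kappa constant regions, (Iglc2 + Iglc3) over Igkc, was lowest in premalignant and highest in malignant libraries. In CPM it was 0.349 and 0.328 in wild-type, 0.0491 and 0.0645 in premalignant and 0.462 and 0.454 in malignant replicates. The stages did not overlap, and the 2 libraries of a stage were close to each other. Put as a share, the lambda genes made up 25.9% and 24.7% of light chain constant-region counts in wild-type, 4.68% and 6.06% in premalignant and 31.6% and 31.2% in malignant replicates. Per kilobase of exon the ratio was lower, at 0.191 and 0.179 in wild-type, 0.0273 and 0.0358 in premalignant and 0.257 and 0.252 in malignant replicates, in the same order. By V genes the order differed. Lambda V genes made up 40.1% and 35.4% of the summed lambda and kappa V level in wild-type replicates. Their share was 16.4% and 19.9% in premalignant and 32.0% and 18.8% in malignant replicates. Both malignant libraries were thus below wild type, and malignant replicate 2 lay within the premalignant range.

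The ratio of light to heavy constant regions, (Igkc + Iglc2 + Iglc3) over Ighm, had smaller differences. It was 0.146 and 0.181 in wild-type, 0.113 and 0.132 in premalignant and 0.248 and 0.175 in malignant replicates. The premalignant pair was lowest, and the malignant pair overlapped with the wild-type pair. Igkc over Ighm alone was 0.108 and 0.136, 0.108 and 0.124, and 0.170 and 0.120 in the 3 stages, which overlapped throughout.

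Both ratios were compared between stages in 6 exact two-sided permutation tests. With 2 libraries against 2 the smallest p such a test can give is 0.333, so that none could pass a threshold of 0.1. It was reached (exact permutation p = 0.333, Benjamini-Hochberg adjusted p = 0.400) in all 3 comparisons of lambda to kappa, with log2 differences of -2.59 (premalignant vs. wild-type), 0.44 (malignant vs. wild-type) and 3.03 (malignant vs. premalignant). For light to heavy it was reached in premalignant vs. wild-type (-0.41) and malignant vs. premalignant cells (0.77). For malignant vs. wild-type cells the difference was 0.36 (exact permutation p = 0.667).

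**Figure D4:**
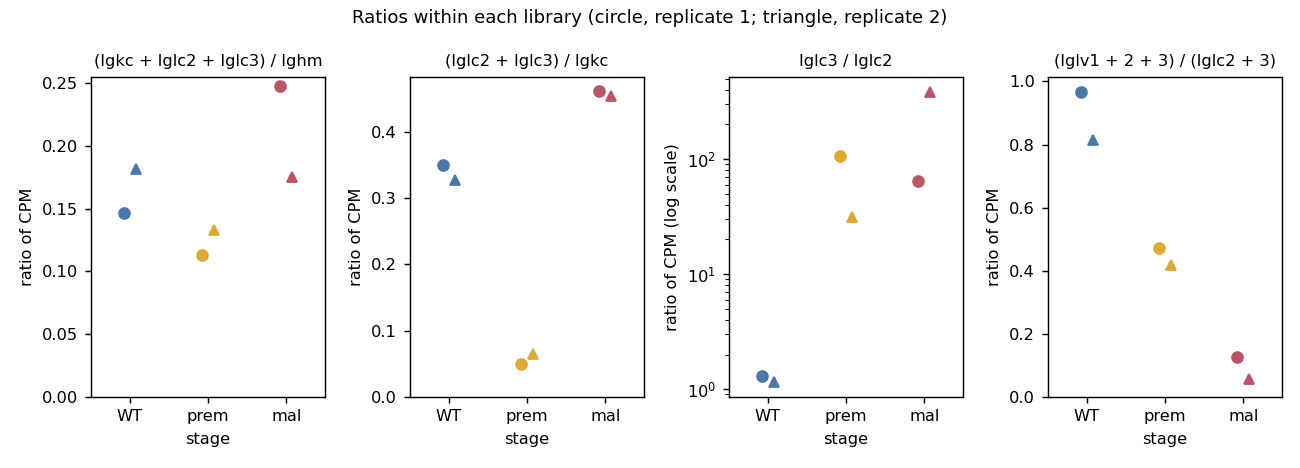
CPM ratios in each library (WT, wild type; prem, premalignant; mal, malignant), with the third panel on a log scale and the others from 0. The premalignant libraries are lowest for lambda to kappa, at 0.0491 and 0.0645, whereas the ratio of Iglc3 to Iglc2 is near 1 in wild-type libraries and 31.5 or higher in all Eμ-Myc libraries.

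Within the lambda locus the balance of the genes differed between wild-type and Eμ-Myc libraries. Iglc3 over Iglc2 was 1.30 and 1.15 in wild-type, 106 and 31.5 in premalignant and 64.1 and 385 in malignant replicates. The Eμ-Myc values rest on 7 to 137 counts of Iglc2, and the premalignant and malignant values overlapped. Iglv1 over Iglc3 was 1.08 and 0.955 in wild-type, 0.132 and 0.183 in premalignant and 0.0781 and 0.0234 in malignant replicates, so that wild-type counts on these genes were close to equal. The sum of the 3 V genes over the sum of Iglc2 and Iglc3 was 0.968 and 0.815, 0.473 and 0.418, and 0.125 and 0.0556 in the same order, with no overlap between stages.

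Iglv2 over Iglc2, 2 genes that are usually joined, varied less than these. It was 0.328 and 0.240 in wild-type, 0.286 and 0.160 in premalignant and 0.0584 and 0.188 in malignant replicates, and the premalignant values overlapped with both other stages. The malignant values lay below the wild-type values without overlap (log2 difference -1.42). The Eμ-Myc values rest on 2 to 8 counts of Iglv2 and 7 to 137 counts of Iglc2, too few to show whether this ratio was steady. Iglv3 over Iglc2 was 0.491 and 0.415 in wild-type replicates but 36.3 and 7.64 in premalignant and 3.10 and 12.3 in malignant replicates.

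The kappa locus was read in the same manner. The summed V genes (100 genes) over Igkc were 0.506 and 0.487 in wild-type, 0.118 and 0.108 in premalignant and 0.123 and 0.109 in malignant replicates, with no overlap between wild-type and Eμ-Myc libraries and overlap between the Eμ-Myc stages. The 5 kappa J segments are short exons that lie between the V genes and Igkc. Their sum was 83.2 and 126 CPM in wild-type, 77.0 and 65.4 CPM in premalignant and 137 and 107 CPM in malignant replicates. Over Igkc this is 0.161 and 0.152, 0.265 and 0.172, and 0.339 and 0.219. Igkj1, the J segment furthest from Igkc, was at 10.9 and 13.7, 11.4 and 11.5, and 24.2 and 20.9 CPM in the 3 stages. It was called higher in malignant cells than in wild-type cells (0.87, edgeR adjusted p = 0.0199) and than in premalignant cells (0.97, edgeR adjusted p = 0.0808). The first call was lost without wild-type replicate 1 (0.72, edgeR adjusted p = 0.102) and the other without either premalignant replicate, with upper-quartile scaling (0.89, edgeR adjusted p = 0.103) and when only the 2 stages were fitted (0.96, edgeR adjusted p = 0.135).

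At the heavy locus, the 4 J segments summed to 33.9 and 41.5 CPM in wild-type, 18.1 and 9.79 CPM in premalignant and 15.4 and 11.4 CPM in malignant replicates. Of the 9 kappa and heavy J segments together, 0 were called higher and 5 lower in premalignant vs. wild-type cells, 1 higher and 3 lower in malignant vs. wild-type cells, and 1 higher and 0 lower in malignant vs. premalignant cells. With 1 library left out the lower calls numbered 0 to 3 and 1 to 4 in the comparisons with wild-type cells, and the higher calls in the last comparison 0 to 4. Of all genes tested, 39.3%, 49.2% and 6.18% were called in these 3 comparisons. The part of the J segments called in malignant vs. wild-type cells was near that share. Summed heavy V genes over Ighm were 0.110 and 0.115 in wild-type, 0.0902 and 0.0855 in premalignant and 0.00122 and 0.0665 in malignant replicates. In malignant replicate 2 a single V gene, Ighv14-3, made up 80.4% of the V sum, whereas the highest V gene made up at most 6.16% in wild-type and premalignant libraries. Malignant replicate 1 held 2.91 CPM of heavy V reads in all, beside 2379 CPM of Ighm.

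Other heavy chain constant regions, which follow Ighm on the chromosome and are used after class switching, were rare. Of 6 listed genes 2 had an identifier under their symbol. Ighg1 was at 11.1 and 1.30 CPM in wild-type, 0.610 and 0.0603 CPM in premalignant and 0.0209 and 0.574 CPM in malignant replicates. It was called lower in both comparisons with wild-type cells (-4.14, edgeR adjusted p = 0.0964, and -4.50, edgeR adjusted p = 0.0715). Ighg2c was at 0.140 and 0.453, 0.133 and 0.151, and 0.774 and 2.58 CPM in the 3 stages. It was called higher in malignant cells than in wild-type (2.52, edgeR adjusted p = 0.0446) and premalignant cells (3.53, edgeR adjusted p = 0.0969). Each of these 4 calls was lost when some single library was left out, both of Ighg1 without wild-type replicate 1 (-1.88 and -2.22), its premalignant call also without each of the other 3 libraries compared and its malignant call without malignant replicate 1 (-3.43), and those of Ighg2c without wild-type replicate 1 (1.87) or malignant replicate 2 (1.46) and without either premalignant replicate (3.44 and 3.61). The call of Ighg2c against premalignant cells was also lost with upper-quartile scaling (3.44, edgeR adjusted p = 0.105) and when only the 2 stages were fitted (3.52, edgeR adjusted p = 0.157). A further constant region, named Ighg in the annotation and picked after its values were seen, was at 22.5 and 21.1, 0.210 and 0.603, and 0.858 and 5.13 CPM.

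Genes whose products act with these chains were mostly lower in Eμ-Myc cells. The share of all genes tested that was called lower was 20.3% in premalignant and 24.3% in malignant vs. wild-type cells. It was 2.45% in malignant vs. premalignant cells. Of 9 listed partners of the receptor, 8 were tested, with 0 higher and 7 lower in premalignant vs. wild-type cells, 0 higher and 7 lower in malignant vs. wild-type cells and 0 called in malignant vs. premalignant cells. In the last comparison DESeq2 also called 0, and 0 had an unadjusted edgeR p under 0.05, but 3 were called lower without the filter on low counts. With 1 library left out, 2 to 5 were lower in premalignant and 6 to 7 in malignant vs. wild-type cells, the fewest without either premalignant replicate and without wild-type replicate 2. The largest changes were those of the surrogate light chain, which pairs with the mu chain before a light chain is made. Vpreb2 changed by -5.28 (edgeR adjusted p = 0.0135) and -6.88 (edgeR adjusted p = 0.00549), Vpreb1 by -4.06 (edgeR adjusted p = 0.0336) and -5.97 (edgeR adjusted p = 0.00999), and Igll1 by -3.78 (edgeR adjusted p = 0.0569) and -5.73 (edgeR adjusted p = 0.0163), in premalignant and malignant vs. wild-type cells. The premalignant calls of Vpreb1 and Igll1 were lost when any 1 of the 4 libraries was left out (edgeR adjusted p of 0.114 to 0.203 and 0.165 to 0.273), and that of Vpreb2 without either premalignant replicate (0.109 and 0.121). The malignant calls were kept, but without malignant replicate 2 the values moved to -12.34, -9.66 and -10.14 for Vpreb2, Vpreb1 and Igll1, and all 3 were then also called lower in malignant than in premalignant cells. Cd79a and Cd79b, which carry the signal of the receptor, changed by -0.63 and -0.81 in premalignant and -0.72 and -0.93 in malignant cells, beside -0.92 and -0.76 for Ighm. The premalignant calls of Cd79a and Cd79b were lost without either premalignant replicate, and both calls of Cd79a without wild-type replicate 2 (-0.40 and -0.49).

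Of 20 listed genes that act on light chain loci, 19 were tested. In premalignant vs. wild-type cells 2 were higher and 10 lower, in malignant vs. wild-type cells 2 higher and 12 lower, and in malignant vs. premalignant cells 0 higher and 2 lower. Besides Myc (4.95 and 5.46), the largest changes against wild-type cells were those of the recombinase gene Rag1 (-2.61 and -4.15) and of the interleukin-7 receptor gene Il7r (-2.38 and -3.65). Irf4 and Spib, factors that act at the light chain enhancers, fell by 1.06 and 1.14 in premalignant and by 1.30 and 2.06 in malignant cells. The 2 genes called lower in malignant vs. premalignant cells were Spib (-0.92, edgeR adjusted p = 0.0348) and Il7r (-1.27, edgeR adjusted p = 0.0608), and both calls were lost without either premalignant replicate, that of Il7r also when only the 2 stages were fitted (-1.28, edgeR adjusted p = 0.147). DESeq2 and the fit without the filter on low counts each called 0 higher and 6 lower there. When only the 2 stages were fitted, 0 were higher and 1 lower. In the main fit 2 had an unadjusted edgeR p under 0.05 in the higher direction and 7 in the lower direction. Without malignant replicate 2 the counts in both directions differed as well. In premalignant vs. wild-type cells 6 to 7 of the genes were lower with 1 library left out.

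Markers of other cells were read from the same fit. Of all genes tested, 39.3% were called in premalignant (20.3% lower) and 49.2% in malignant vs. wild-type cells (24.3% lower). Of 7 plasma cell markers 5 were measured and none was at 0. Their sum, most of it Irf4, was 755 to 860 CPM in wild-type, 377 to 387 CPM in premalignant and 330 to 331 CPM in malignant libraries, with 4 and 3 of the 5 lower than in wild-type cells. The defining marker Prdm1 was at 6.87 and 5.80, 0.400 and 0.392, and 0.377 and 1.33 CPM. Of 8 markers of immature or mature B cells, 1 was higher and 2 lower in premalignant and 2 higher and 4 lower in malignant vs. wild-type cells, with sums of 1452 to 1920, 1871 to 1943 and 2343 to 3360 CPM. The share of these 8 called in premalignant cells was close to that over all genes. The 2 called higher in malignant cells were Cd74, at 286 and 338, 849 and 877, and 1054 and 2346 CPM, and Cd22, at 148 and 236, 186 and 204, and 336 and 381 CPM, while Ms4a1, Fcer2a, Cr2 and Cd37 were the 4 lower in malignant cells. All 8 myeloid markers were lower in both Eμ-Myc stages than in wild-type cells, at sums of 985 to 2201, 299 to 323 and 73.7 to 141 CPM. On each of these lists fewer of the premalignant calls passed when any 1 library compared was left out.

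Erythroid markers summed to 294 to 1084, 60.3 to 138 and 52.5 to 58.1 CPM, with 5 of 6 lower in both Eμ-Myc stages. T cell markers summed to 135 to 142, 57.4 to 61.5 and 140.3 to 201 CPM, with 5 of 7 lower in both. Most of the malignant sum was Cd2, which B-lineage cells express as well, at 75.3 and 97.1, 30.4 and 43.4, and 199.8 and 130.4 CPM, and it was called higher in malignant vs. wild-type cells. Of the defining T cell markers, Cd3e was at 0 in premalignant replicate 2 and Trac at 0 in malignant replicate 2. T cell transcripts were not absent, however. Cd4 was at 48.7 and 27.8, 12.6 and 6.45, and 0.126 and 2.40 CPM in the 3 stages. Cd8a was at 8.54 and 5.63, 17.8 and 6.84, and 0.230 and 6.45 CPM. Fewer of the premalignant calls of erythroid and T cell markers passed without wild-type replicate 2 or without either premalignant replicate. The part of any of these cells in the immunoglobulin values was not tested.

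The genes whose pattern over the 6 libraries was most like that of a member were found among 8866 genes with a mean of at least 10 CPM, immunoglobulin genes left out, by the root mean square difference of centred log2(CPM + 1). For Ighm they were Fam63a (0.0432), Phf21a (0.0939), Psap (0.101), Ankrd9 (0.102) and Vps13b (0.103). For Igkc they were Mtss1 (0.117), Psen2 (0.138), Gsdmd (0.138), Il2rg (0.140) and Mgrn1 (0.147). For the sum of Iglc2 and Iglc3 the nearest were Gpr18 (0.628), Anxa2 (0.655), Ccdc88b (0.689), Lrrc16a (0.719) and Ccnd2 (0.731). This measure grows with the size of a gene's differences between libraries, which were larger for the lambda sum. Its values are therefore not comparable between members. The correlations of these 5 genes with the sum were 0.929 to 0.982, beside 0.956 to 0.980 for the 5 genes with Igkc. With 6 libraries this is a description of likeness in these samples.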

How the data were processed

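Polyadenylated RNA of cells sorted and labelled as pre-B cells was sequenced from 6 libraries, 2 per stage. The authors aligned 50-base single-end reads (TopHat) and deposited raw HTSeq counts for each Ensembl gene. Per the labels the build is mm9, and HTSeq's options, strand use included, are not given in the sources used here. The deposited tables of the authors' own comparisons hold means, fold changes and p-values and were not used.

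Symbols, exons and coordinates come from GENCODE vM1 on NCBIM37, which named 37205 of 37991 identifiers. Symbols missing there (Ighd, Iglc1, Syk, Ighg2b, Ighg3, Ighe, Igha, Jchain, Mzb1) were not analysed here. A second identifier of a symbol with 0 counts in every library was left out of lists, and 1 further listed gene is not reported here. Stages and replicate numbers were taken from the labels. Counts of all 6 libraries entered 1 quasi-likelihood fit (edgeR 4.0.16, R 4.3.3) with TMM scaling and the default filter on low counts, and p-values were adjusted over all 16683 genes tested. The fit was tested on simulated data. The standard error was taken from the fold change and its F statistic. DESeq2 1.42.0, other scalings and filters and fits without each library were alternatives. CPM used TMM-scaled library sizes, and exon lengths gave CPM per kb.

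Windows of 50 bases were searched on both strands of the genome. Heavy V genes were summed over symbols starting with Ighv and, beyond the planned rule, over the V gene type on chromosome 12, since vM1 names many of them otherwise. Ratios were compared by exact permutation over libraries. The members, lists and tests were chosen with earlier results of these data known. Named were all members, the largest changes on each list (at most 3) and the 5 genes most like Ighm, Igkc and the lambda constant regions. Replicates of a stage differed beyond sampling noise.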

Additional observations from a re-analysis of the deposited data

How the results depend on the processing

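Of 266 values for 21 gene results (7 genes in 3 comparisons) under the alternatives, 231 kept the direction and the call, 21 lost a call, 13 gained one and 1 reversed. Against wild-type cells, Iglc2, Iglv1, Iglv2 and Iglv3 were called lower in both Eμ-Myc stages, and Iglc3 in premalignant cells, in every setting in which they were tested. At least 10 counts in every library left Iglc2 and Iglv2 untested. The numbers called in the comparisons with wild-type cells stayed within 1.5 times 7 and 6. In malignant vs. premalignant cells 1 gene was called, 2 with DESeq2, 3 without the filter on low counts, and 0 to 4 when 1 library was left out. The call of Iglc3 was lost without either premalignant replicate, and 4 genes were called without malignant replicate 2. With 1 library left out, the log2 fold change of Ighm there ranged from -0.31 (without malignant replicate 2, where it reversed) to 0.50. The causes were not tested, except that leaving out a library leaves fewer samples, whose lone partner is assumed to vary like the other stages. The differences of 2 ratios, lambda to kappa and light to heavy constant regions, kept their direction under the alternatives run for them. Scaling of a library cancels in such a ratio, and leaving out 1 library cannot reverse stages that do not overlap. Only light to heavy in malignant vs. wild-type cells, where the stages overlapped, could have reversed in that way.

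The replicate numbers are shared by the stages, but the labels name no shared animal or batch for them, and there are 2 pairs, so that the samples were not taken as paired. Deviations of same-numbered libraries correlated across genes at 0.509 (wild type and premalignant), 0.186 (wild type and malignant) and 0.257 (premalignant and malignant), and replicate 1 libraries were all deeper. With the replicate number as a block, 7, 7 and 1 genes were called in place of 7, 6 and 1, Igkc being added in malignant vs. wild-type cells (-0.57, edgeR adjusted p = 0.0478). Under the block the calls of Ighg1 in malignant vs. wild-type cells (-3.66, edgeR adjusted p = 0.139) and of Igkj1 in malignant vs. premalignant cells (0.97, edgeR adjusted p = 0.123) were lost. The planned ratios with Ighd or with Iglc1 alone could not be computed. Depth limits Iglv2 and Iglc2 in Eμ-Myc libraries, and 2 libraries per stage limit every comparison.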
